A study of Mus musculus with 16 samples.

Results

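The cytosolic ribosome of the mouse is built from ribosomal RNA and a set of ribosomal proteins, and the genes described here are the 80 protein-coding genes for those proteins, 49 for the large subunit and 31 for the small subunit, of 50600 genes in the count table. A gene was taken as a member where its Ensembl identifier maps to a protein-coding symbol made of Rpl or Rps and digits, with at most a closing a, x, y or l, or to Rpsa, Rplp0, Rplp1 or Rplp2. Pseudogenes and the Rps6k kinases were left out, and the rule uses symbols and no measured value. All 80 had at least 1 count, and 78 held enough counts to be tested, the exceptions being Rpl3l and Rpl10l.

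The 16 bulk RNA libraries, 4 in each of 4 groups, were made from cells sorted by fluorescence from males of 13 to 14 weeks, to compare CD11c cells of the ischemic brain with microglia. Control microglia (control brain) and ischemic microglia (ipsilateral ischemic hemisphere) are CX3CR1+ cells of the line CX3CR1CreERT2:Rosa26-tdT, in which a tamoxifen-inducible Cre made under the Cx3cr1 promoter switches on a red fluorescent protein. Brain CD11c cells (ischemic hemisphere) and spleen CD11c cells are CD11c-eYFP+ cells of the line Tg(Itgax-Venus)1Mnz, where a yellow fluorescent protein is made under the promoter of Itgax, the CD11c gene. The Cx3cr1 and Itgax promoters are both active in more than 1 kind of myeloid cell. The labels give neither the time after ischemia, nor a disease state for the spleen donors, nor which libraries are of different animals, and each p-value is measured against the variation from library to library, which may be technical. Each comparison between a microglia group and a CD11c group is also one between 2 mouse lines and 2 sorting reporters, which cannot be told apart from the cell type.

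Ribosomal proteins are needed in near-equal numbers, so their genes are usually regulated together. Their messenger RNAs carry a 5′ terminal oligopyrimidine (TOP) tract, a run of C and T at the very start of the transcript through which mTORC1 signalling controls their translation. Transcription of these genes and of ribosomal RNA is raised when cells grow or are activated, with MYC among the factors involved. In the adult brain, microglia are resting macrophages that become activated after injury. Conventional dendritic cells can enter from the blood or lie at the brain's borders.

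Pyrimidine runs near the annotated start were counted. RefSeq promoters (build GRCm38.p6) were matched for 60 of the 80 members. Of these, 26 (43.3%) held a run of at least 8 C or T within 15 bases of the annotated start, against 13.9% of 27025 genes. The longest run had that length and covered the first transcribed base itself, as a TOP tract would, in 16 members (26.7%) and 4.4% of all genes. Only the longest run of each window was examined, so other runs over that base are not counted. The sequence CTTTCC occurred on the sense strand of the 300-base promoter in 41.7% of members and 16.0% of all genes, and on either strand in 53.3% and 29.3%. CCGGAAG, a core that ETS-family factors bind, occurred on the sense strand in 26.7% of members and 5.4% of all genes, and on either strand in 41.7% and 9.9%. The 30 bases around the start of members whose values are given below are shown 5′ to 3′, with the longest pyrimidine run in capitals. The annotated start follows base 15. Only members with a run of at least 8 bases are shown, so the windows cannot bear on which members rose together. In the windows of Rpl39, Rps15a and Rps27l the longest run does not cover the annotated start. It lies after the start in Rpl39 and before it in the others. In Rps15a a shorter run, left in small letters, does cover the first transcribed base.
Rpl14 (chr9:120571502-120571531, plus strand): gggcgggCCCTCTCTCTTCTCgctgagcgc
Rpl27a (chr7:109519180-109519209, plus strand): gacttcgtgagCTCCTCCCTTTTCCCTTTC
Rpl39 (chrX:37085208-37085237, minus strand): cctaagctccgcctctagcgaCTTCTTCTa
Rplp2 (chr7:141447636-141447665, plus strand): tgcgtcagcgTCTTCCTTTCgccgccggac
Rps6 (chr4:86857353-86857382, minus strand): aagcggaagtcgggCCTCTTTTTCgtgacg
Rps9 (chr7:3704026-3704055, plus strand): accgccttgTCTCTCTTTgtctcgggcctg
Rps15a (chr7:118116133-118116162, minus strand): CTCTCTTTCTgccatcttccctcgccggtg
Rps27 (chr3:90213634-90213663, minus strand): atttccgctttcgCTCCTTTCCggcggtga
Rps27l (chr9:66946071-66946100, plus strand): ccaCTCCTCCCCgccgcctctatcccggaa

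The level read for each gene depends on how much of its messenger RNA is found nowhere else. Ribosomal protein genes have many processed pseudogenes, of which the count table lists 283 under a name ending in -ps, and a read that fits several genes is counted or dropped according to a setting not named in the labels. All the windows of 50 bases in 1 annotated coding transcript of each member were therefore compared with every other gene's transcripts in GENCODE release M21. The transcript taken was long for Rps15a (5179 bases) and Rps20 (3706 bases), with 93.63% and 92.43% of windows their own. Other choices of transcript were not tested. The share of windows found in no other gene had a median of 48.1% and ran from 1.35% for Rps27 to 100%, as for Rpl39l and Rpl3l. It was at least 50% for 37 members and lower for 43. Across the 80 members this share and the level per kilobase of messenger RNA had a Spearman correlation of 0.29, and of 0.43 with 100-base windows, as a description of genes in the same libraries. Counts were uneven. Rpl38 held 199 counts over the 16 libraries, Rpl24 602, Rps6 902 and Rps29 951, whereas the 7 members with the most counts, led by Rpl4 and Rps3, held 50.48% of all member counts. Values of a gene that shares most of its sequence are uncertain, and levels are not compared between members.

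How close the copies can be is shown by the first 60 coding bases of the paralogs described below, taken from GENCODE release M21 (GRCm38), with capitals where a paralog differs from its parent. Rps27 (chromosome 3, 90212522 to 90213651) and the retrogene Rps27rt (chromosome 9, 114982366 to 114982739), which lies outside the rule, are identical over all 255 coding bases. Rps27l (chromosome 9, 66946086 to 66949516) differs from Rps27 at 61 of 255 coding bases (76.1% identity), and Rpl39l (chromosome 16, 10170226 to 10174911) differs from Rpl39 (chromosome X, 37082520 to 37085402) at 23 of 156 (85.3% identity).
Rps27: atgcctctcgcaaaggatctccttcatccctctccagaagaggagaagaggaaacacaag
Rps27rt: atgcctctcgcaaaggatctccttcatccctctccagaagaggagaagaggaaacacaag
Rps27l: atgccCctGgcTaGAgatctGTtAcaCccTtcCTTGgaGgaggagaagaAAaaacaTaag
Rpl39: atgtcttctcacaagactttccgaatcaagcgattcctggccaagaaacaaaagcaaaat
Rpl39l: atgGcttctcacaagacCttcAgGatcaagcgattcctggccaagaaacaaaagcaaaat

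Summed over all 80 genes, ribosomal protein counts took the smallest share of the library in control microglia and a larger one in each of the other groups. The share was 0.659%, 0.552%, 0.584% and 0.742% in the 4 control microglia libraries and 0.830%, 0.958%, 0.845% and 0.847% in ischemic microglia. It was 0.988%, 0.933%, 1.31% and 1.72% in brain CD11c cells and 1.36%, 1.33%, 1.56% and 1.27% in spleen CD11c cells. The control microglia lay below every other library and the ischemic microglia below every spleen library, and brain CD11c libraries 1 and 2 lay near the ischemic microglia whereas libraries 3 and 4 lay in or above the range of the spleen. The ratio of group means was 1.37 for ischemic over control microglia, 1.42 for brain CD11c cells over ischemic microglia, 0.898 for brain over spleen CD11c cells and 2.17 for spleen CD11c cells over control microglia. In bulk samples fewer cells of a type and less RNA per cell cannot be told apart.

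**Figure D1:**
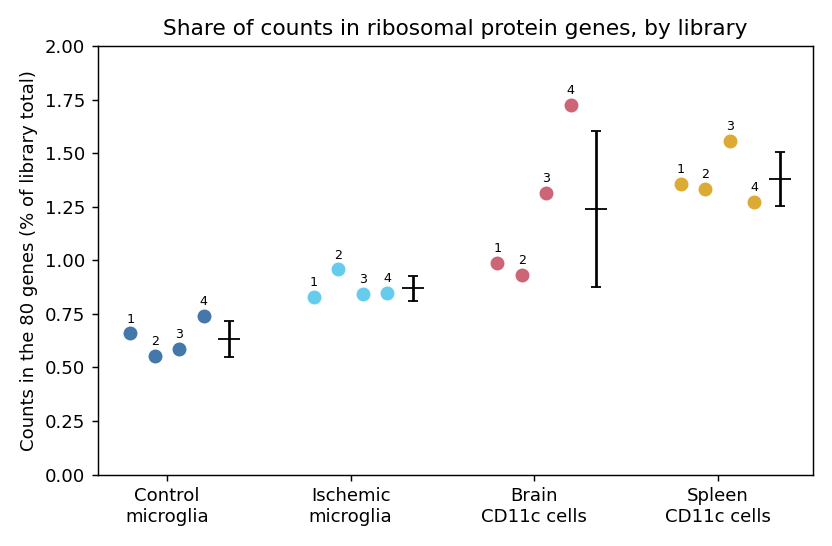
Share of all counts that fell in the 80 ribosomal protein genes (vertical axis, percent of the library total) for each library, numbered by replicate, in the 4 groups (horizontal axis). The black mark and bar give the group mean and SD (n = 4). Control microglia sit between 0.552% and 0.742%, below all other libraries, and brain CD11c libraries 3 and 4 sit above libraries 1 and 2 of the same group.

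Libraries held 31.57 to 48.25 times 1e6 counts, with a mean of 39.38 ± 4.29 times 1e6 (SD, n = 16). In brain CD11c cells, libraries 1 and 2 carry titles that name the reporter, whereas libraries 3 and 4 carry a letter and digits, and the labels do not say what this marks. These libraries stand apart: the median member lay 0.11 and 0.01 above its mean over all 16 libraries (log2 scale) in libraries 1 and 2 and 0.38 and 0.80 above it in libraries 3 and 4. The same libraries held 19379, 19482, 17932 and 16941 genes with a count, mitochondrially encoded genes took 1.21%, 1.08%, 1.06% and 2.01% of their counts, and the summed markers of conventional dendritic cells stood at 11165, 15994, 22629 and 28763 CPM (counts per 1e6 counts). Summed oligodendrocyte markers stood at 221, 209, 384 and 427 CPM in these libraries. Microglial markers summed to 6527 to 7003 CPM in the brain CD11c cells, 14909 to 25783 in the microglia and 176 to 237 in the spleen CD11c cells. Monocyte markers summed to 990 to 1272, 18.1 to 36.4 and 514 to 587 CPM in the same order. The spleen CD11c libraries also held markers of other cells: B cell markers summed to 2229 to 2927 CPM there and to at most 21.7 elsewhere, plasma cell markers to 4569 to 9100 and at most 305, and erythroid markers to 52.8 to 3528 and at most 1.15. Neutrophil markers summed to 182 to 755 CPM in the spleen and at most 4.37 elsewhere. T cell markers summed to 141 to 231 and at most 6.83, and natural killer markers to 22.0 to 43.3 and at most 4.41. The part of these cells in the ribosomal protein values was not tested. Counts of members and list genes called in brain CD11c cells are given with libraries 1 and 2 alone as well, a split chosen with these values known.

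**Figure D2:**
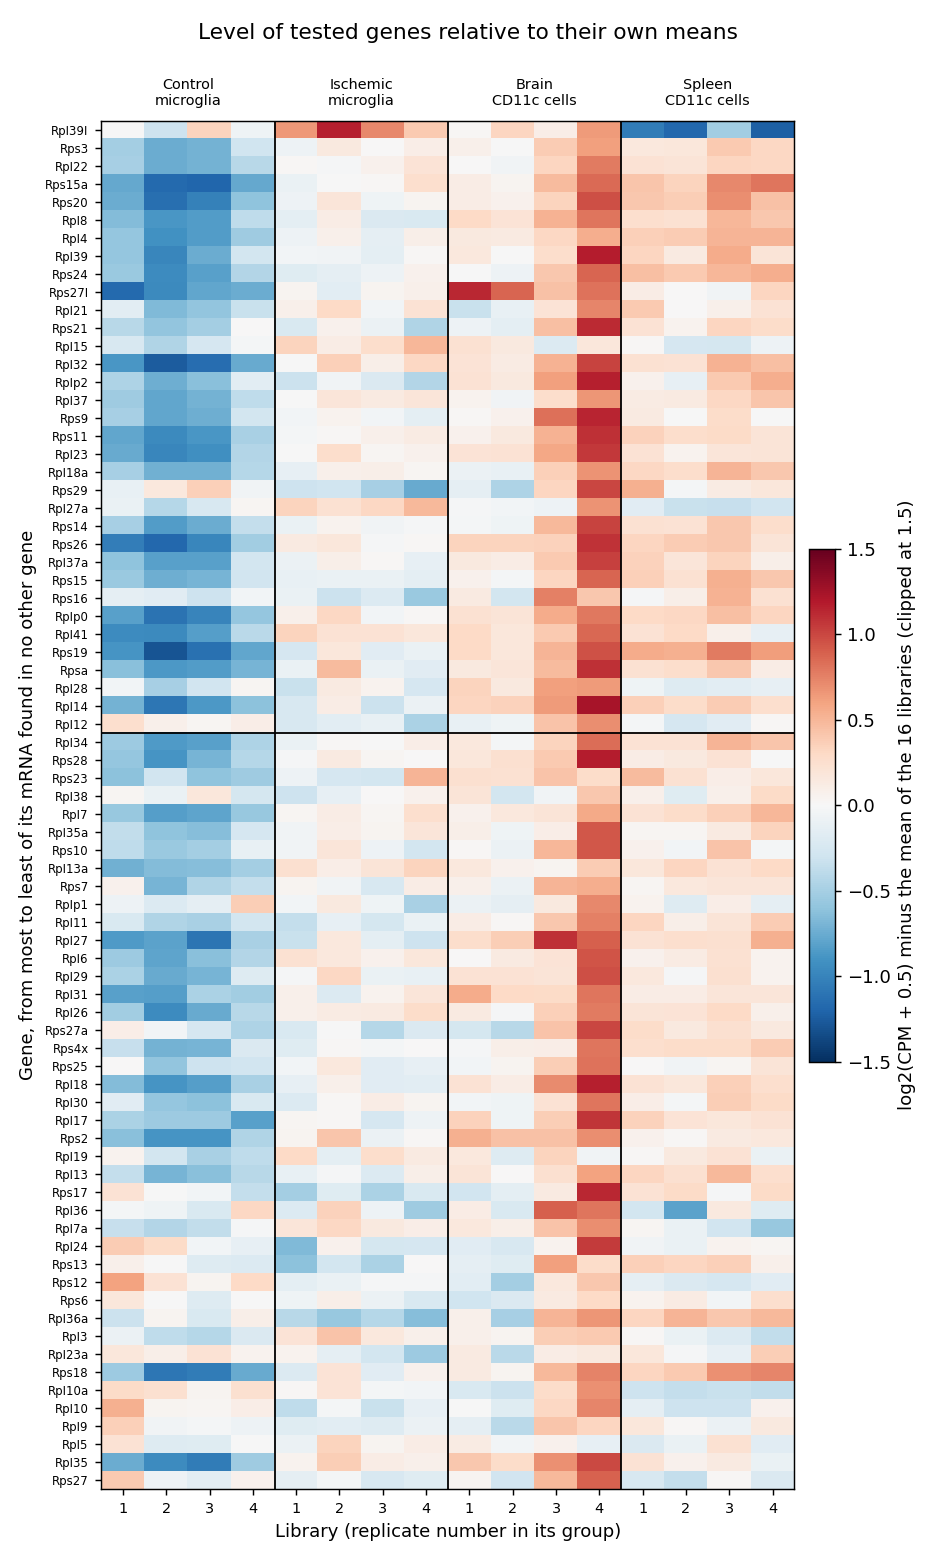
Level of 76 tested members in each library relative to its own mean, as log2(CPM + 0.5) minus the mean of the 16 libraries (colour, clipped at 1.5); columns are libraries by group and replicate. Genes run from the most to the least of their messenger RNA found in no other gene, and the horizontal line marks 50%; most genes above it are lowest in control microglia, most genes are highest in brain CD11c library 4, and Rpl39l at the top is lowest in the spleen.

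The first comparison asks how ribosomal protein genes differ between microglia of the ischemic and the control brain. Of the 78 tested members 49 rose in ischemic microglia and none fell by edgeR's quasi-likelihood test with Benjamini-Hochberg adjustment over all genes, against 17.7% of all genes called higher and 18.0% called lower. The changes that passed ran from 0.43 to 1.19 on the log2 scale. The median member changed by 0.57 and the median of all 16345 genes tested by −0.05. The 4 libraries of each group did not overlap for 50 members that were higher (19.9% of all genes) and 7 that were lower (23.3%). At an unadjusted p under 0.05 this test had 4 members lower, and DESeq2 and limma-voom also called 0 lower. Scaled by library totals instead of TMM factors, which moves the median of all genes from −0.05 to −0.20, 31 members were called higher and 3 lower, and the higher share of calls over all genes went from 49.5% to 33.5%.

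Both subunits took part, with 31 of 47 large-subunit and 18 of 31 small-subunit members called higher and medians of 0.56 and 0.57. The largest change was that of Rpl32, a protein of the large subunit (chromosome 6, 115805505 to 115808747). Its level was 99.8, 76.7, 82.8 and 108 CPM in control microglia and 182, 234, 195 and 227 in ischemic microglia, a log2 fold change of 1.19 ± 0.18 (SE, adjusted p = 9.54e-05). All ischemic libraries lay above all control libraries. Rpl41, the smallest ribosomal protein, stood at 42.8, 42.5, 46.5 and 62.5 CPM and 105, 96.5, 96.2 and 93.5 CPM in the same groups, a change of 1.01 ± 0.15 (SE, adjusted p = 0.000117), again without overlap.

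Abundant members were among those that rose. Rpl4, which lines the tunnel through which the new protein leaves the ribosome, stood at 699, 559, 584 and 725 CPM and 994, 1102, 951 and 1109.5 CPM (0.70 ± 0.12, SE, adjusted p = 0.000364). Rps3, which sits where the messenger RNA enters, stood at 659.7, 562, 577 and 769 CPM and 892, 1041, 945 and 1012 CPM (0.60 ± 0.14, SE, adjusted p = 0.00354). Neither of these genes had overlapping groups.

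The proteins of the stalk, which recruits the elongation factors, did not all pass. Rplp0, the base of the stalk, went from 300.1, 245, 266 and 355 CPM in control to 556, 657, 514 and 534 CPM in ischemic microglia (0.96 ± 0.14, SE, adjusted p = 0.000123), with no overlap. Its partners did not pass: Rplp1 stood at 513, 469, 491 and 696 CPM and 522, 599, 518 and 386 CPM (−0.10 ± 0.19, SE, adjusted p = 0.717) and Rplp2 at 91.8, 76.3, 82.0 and 113 CPM and 101, 122, 109 and 93.1 CPM (0.23 ± 0.21, SE, adjusted p = 0.419). For both partners the 2 groups overlapped, control library 4 being among the highest. The difference between stalk genes was not tested as such, but relative to the summed counts of the 80 genes Rplp0 was higher (0.36 ± 0.14, SE, adjusted p = 0.0328) and Rplp1 and Rplp2 were lower in ischemic microglia (−0.70 ± 0.15, SE, adjusted p = 0.000974 and −0.37 ± 0.15, SE, adjusted p = 0.0416).

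Some members with a role beyond the average ribosome are given for their function. Rps6, the substrate of the S6 kinases, has 15.4% of its windows to itself and stood at 1.65, 1.41, 1.17 and 1.42 CPM in control and 1.33, 1.54, 1.31 and 1.14 CPM in ischemic microglia (−0.09 ± 0.25, SE, adjusted p = 0.824). Rpsa, also known as the laminin receptor, stood at 5.65, 4.71, 4.79 and 5.34 CPM and 8.35, 12.6, 8.34 and 7.94 CPM (0.86 ± 0.21, SE, adjusted p = 0.00426), and its groups did not overlap. Rpl5 and Rpl11, which with 5S ribosomal RNA can bind the p53 regulator MDM2, stood at 23.0 ± 3.27 and 4.19 ± 0.418 CPM (SD, n = 4) in control microglia. In ischemic microglia they stood at 25.4 ± 3.25 and 4.70 ± 0.428 CPM, and neither passed (adjusted p = 0.414 and 0.498).

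**Figure D3:**
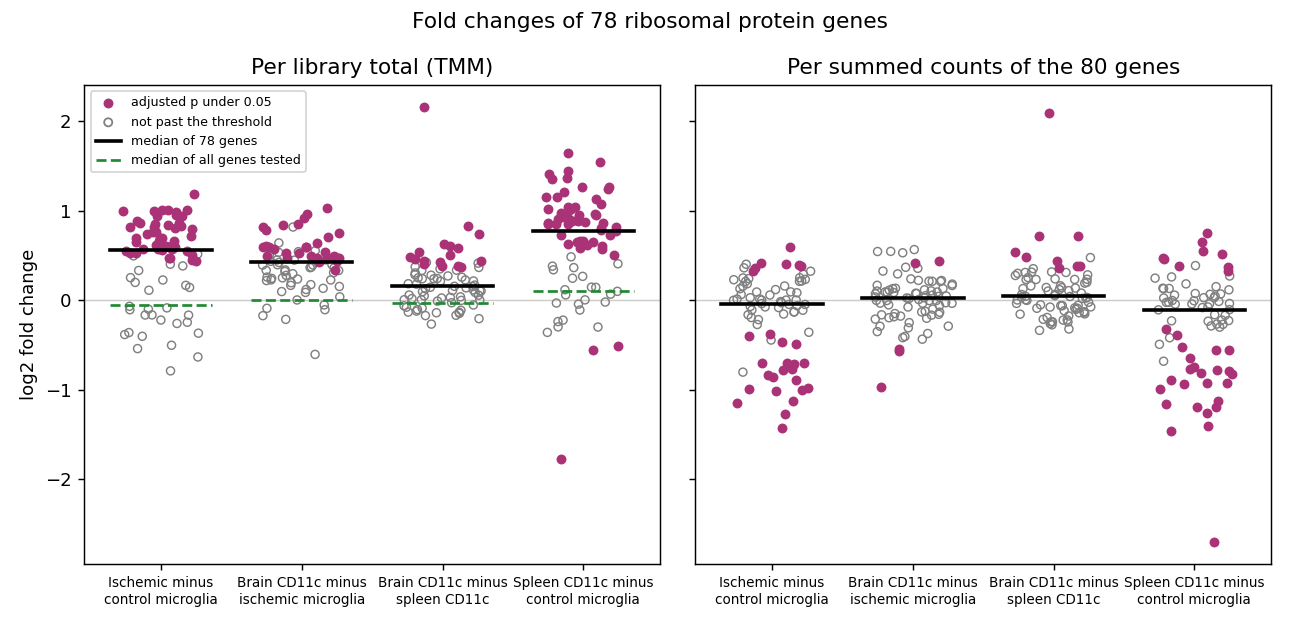
Log2 fold changes of the 78 tested members in the 4 comparisons, scaled by TMM factors (left) and by the summed counts of the 80 genes (right). Filled points passed an adjusted p of 0.05, black bars are medians of the members and dashed bars medians of all genes tested; on the left the members' median lies above that of all genes in each comparison, and Rpl39l is the lowest point for spleen CD11c cells minus control microglia.

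When each library was scaled by the summed counts of the 80 genes, so that a change is one within the set, 7 members were higher (4.64% of all genes) and 21 lower (49.1%) in ischemic than in control microglia. Those higher were led by Rpl32 (0.59 ± 0.13, SE, adjusted p = 0.00114), and they ranged from 0.33 to 0.59. The largest fall was that of Rps29, a zinc-binding small-subunit protein, with 1.27, 1.64, 1.97 and 1.36 CPM in control and 1.05, 1.06, 0.863 and 0.635 CPM in ischemic microglia (−1.43 ± 0.35, SE, adjusted p = 0.00204 within the set). It was followed by Rpl24, a large-subunit protein that joins the ribosome late, in the cytoplasm (−1.28 ± 0.38, SE, adjusted p = 0.00804 within the set), with 1.35, 1.23, 0.884 and 0.809 CPM and 0.401, 0.983, 0.680 and 0.688 CPM. Both rest on few counts, 24 to 96 per microglia library for Rps29 and 16 to 54 for Rpl24. Neither passed on the TMM scale (−0.79 ± 0.36, SE, adjusted p = 0.102 and −0.63 ± 0.40, SE, adjusted p = 0.236), although for Rps29 every ischemic library lay below every control library.

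The members that did not rise were mostly those that share their sequence. Of the 35 tested members with at least 50% of their windows to themselves 28 were called higher (median 0.62), and of the 43 with less 21 were (median 0.43). Within the set, 15 of the 21 members called lower belonged to the latter. The share of own windows and the log2 fold change had a Spearman correlation of 0.46 over the 78 tested members, which is a description across genes in the same 8 libraries. Rpl10, a late-joining large-subunit protein with 7.87% of its windows to itself, stood at 45.7, 32.5, 32.1 and 33.6 CPM in control and 24.0, 30.9, 24.9 and 29.0 CPM in ischemic microglia (−0.40 ± 0.18, SE, adjusted p = 0.0867). Rps12, with 16.45%, stood at 26.1, 19.9, 17.6 and 21.1 CPM and 15.3, 15.8, 16.9 and 16.9 CPM (−0.38 ± 0.16, SE, adjusted p = 0.0787). In these 2 genes every ischemic library lay below every control library. Whether shared sequence has a part in these values was not tested.

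**Figure D4:**
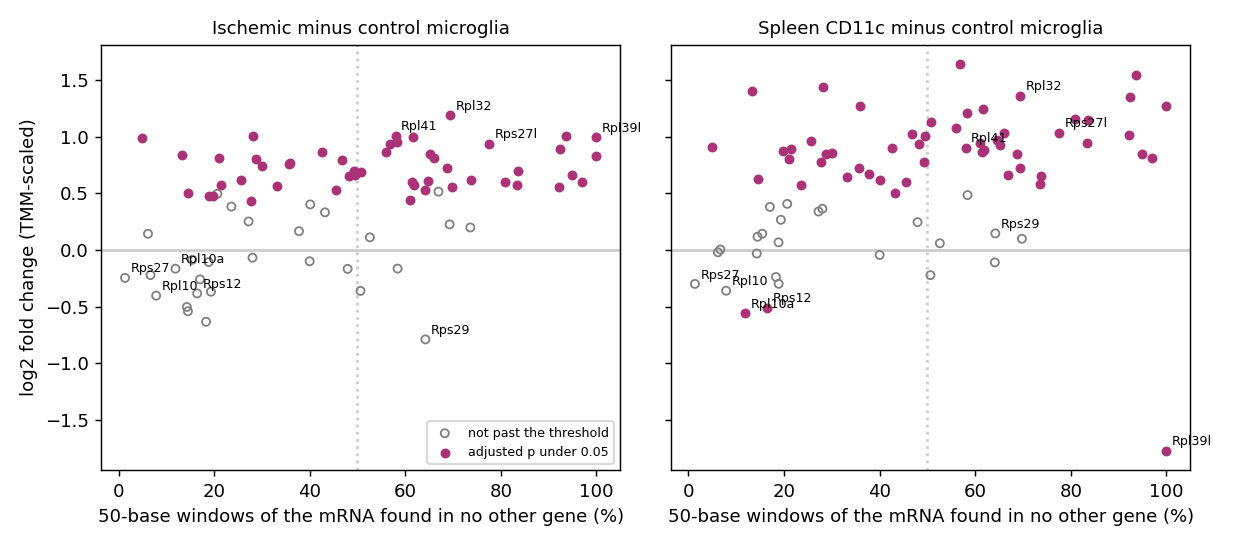
Log2 fold change (vertical axis) against the percentage of 50-base windows of the messenger RNA found in no other gene (horizontal axis) for the 78 tested members, in ischemic minus control microglia (left) and spleen CD11c cells minus control microglia (right). Filled points passed an adjusted p of 0.05 and the dotted line marks 50%; on the left the points under 0 lie below 50% except for Rpl12, Rps16 and Rps29, and on the right Rpl39l at 100% is the lowest.

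Spleen CD11c cells and control microglia differ in tissue, cell type and mouse line at once, and neither group is labelled ischemic. In spleen CD11c cells 52 of 78 members were higher and 3 lower than in control microglia by edgeR, against 37.1% of all genes called higher and 31.7% called lower. The changes of the 52 ran from 0.50 to 1.64, the median member changed by 0.78 and the median gene by 0.11. Libraries did not overlap for 54 members that were higher (38.4% of all genes) and 4 that were lower (32.5%). Scaled by library totals, which moves the median of all genes to 0.34, the median member changed by 1.01, 1 member was called lower, and the higher share of all calls went from 53.9% to 63.9%. B cell, plasma cell and erythroid markers were present in these spleen libraries at the levels given above.

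In spleen CD11c cells 30 of 47 large-subunit and 22 of 31 small-subunit members were higher, with medians of 0.72 and 0.80, a difference that was not tested. Rps19, mutated in many patients with Diamond-Blackfan anaemia, stood at 64.0, 47.9, 54.5 and 69.1 CPM in control microglia and 175, 172, 204 and 183 CPM in spleen CD11c cells (1.64 ± 0.16, SE, adjusted p = 1.27e-07). Rps15a stood at 113, 85.4, 83.9 and 113 CPM and 257, 241, 315 and 334 CPM (1.54 ± 0.18, SE, adjusted p = 8.42e-07). In both genes the groups did not overlap. Rps19 and Rps15a were also higher within the set (0.75 ± 0.13, SE, adjusted p = 2.9e-05 and 0.65 ± 0.14, SE, adjusted p = 0.000422). Within the set 9 members were higher (17.5% of all genes) and 25 lower (57.7%), and 7 of the 9 belonged to the small subunit.

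Only Rpl39l, Rpl10a and Rps12 fell in spleen CD11c cells by this test. Rpl10a, which forms the lateral stalk by the site where the spent transfer RNA leaves, stood at 45.9, 44.7, 38.6 and 44.7 CPM in control microglia and 30.2, 29.2, 29.8 and 29.1 CPM in the spleen cells (−0.56 ± 0.17, SE, adjusted p = 0.00684). Rps12 stood at 15.5, 14.7, 14.3 and 15.1 CPM in the spleen cells (−0.51 ± 0.16, SE, adjusted p = 0.0111), and neither gene overlapped between groups. Both share most of their sequence with other genes (11.9% and 16.45% of windows their own). Scaled by library totals neither passed, and without control library 1 Rps12 did not pass either, at a change of −0.36.

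Brain CD11c cells were then set against ischemic microglia, which come from the same hemisphere. Here 30 members were higher and none lower by edgeR, against 19.7% of all genes called higher and 19.1% called lower, and the median member changed by 0.42 while the median gene changed by 0.00. The changes that passed ran from 0.34 to 1.03. Groups did not overlap for 15 members that were higher (14.9% of all genes) and 0 that were lower (16.5%). By edgeR 0 members were lower at an unadjusted p under 0.05, and DESeq2 and limma-voom called 0 lower. Scaled by library totals the higher share of all calls went from 50.7% to 62.4%.

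These counts rest on libraries 3 and 4. With brain CD11c libraries 1 and 2 alone, 4 members were higher (Rpl14, Rpl31, Rps2 and Rps27l) and 2 lower (Rpl10a and Rpl27a), with a median change of 0.08, where 20.9% of all genes were called higher and 20.2% lower. With libraries 3 and 4 alone 64 of 79 tested members were higher, against 19.8% of all genes, with a median of 0.67. Without library 4 the count higher was 11, without library 3 it was 19. Leaving out an ischemic microglia library also lowered it, to 19 without ischemic library 1 and 17 without ischemic library 3. The 1369 shortest of the other protein-coding genes tested had a median change of 0.20 in this comparison. The part of library quality or of transcript length in the difference was not tested.

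Rps27l, Rpl14, Rps2 and Rpl31 passed with libraries 1 and 2 alone as well. Rps27l, a paralog of Rps27 that p53 can induce, stood at 23.3, 20.1, 23.3 and 23.8 CPM in ischemic microglia and 49.8, 41.6, 30.8 and 39.9 CPM in brain CD11c cells (0.84 ± 0.14, SE, adjusted p = 0.00016), with libraries 1 and 2 the highest of the group and no overlap. With libraries 1 and 2 alone the change was 1.01 (adjusted p = 3.28e-05, edgeR). Rpl14 of the large subunit stood at 67.7, 86.5, 64.3 and 75.6 CPM and 100.2, 102, 125 and 190.0 CPM (0.82 ± 0.17, SE, adjusted p = 0.00124), with all brain CD11c libraries above all ischemic microglia. With libraries 1 and 2 alone its change was 0.46 (adjusted p = 0.00875, edgeR). Rps2, of the messenger RNA entry site, stood at 85.0, 110.5, 77.9 and 83.8 CPM and 120.1, 112, 112 and 135 CPM (0.43 ± 0.12, SE, adjusted p = 0.00951), where brain libraries 2 and 3 lay just above ischemic library 2. With libraries 1 and 2 alone its change was 0.38 (adjusted p = 0.0387, edgeR), and that of Rpl31 was 0.42 (adjusted p = 0.0442, edgeR).

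The largest changes of this comparison were in genes of low level whose libraries differed. Rps29 stood at 1.25, 0.896, 1.91 and 3.35 CPM in brain CD11c cells (1.03 ± 0.36, SE, adjusted p = 0.0338), Rpl36a at 1.53, 1.33, 1.52 and 1.24 CPM in ischemic microglia and 2.37, 1.43, 3.38 and 3.80 CPM in brain CD11c cells (0.96 ± 0.27, SE, adjusted p = 0.00943). In both genes brain library 2 lay within the range of the ischemic microglia. Rpl27 stood at 3.33, 4.89, 3.84 and 3.39 CPM and 5.29, 5.72, 9.77 and 8.45 CPM (0.92 ± 0.23, SE, adjusted p = 0.00398), without overlap. The stalk protein Rplp2 stood at 147, 140.2, 194 and 285 CPM in brain CD11c cells (0.85 ± 0.21, SE, adjusted p = 0.00378), above all ischemic microglia. Of these 4 genes none passed with brain CD11c libraries 1 and 2 alone.

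Within the set only Rpl14 and Rplp2 were higher in brain CD11c cells than in ischemic microglia (2 members, 9.64% of all genes) and 3 were lower (27.2%). The lower ones were Rpl39l (−0.97 ± 0.37, SE, adjusted p = 0.0433), Rpl15 (−0.54 ± 0.19, SE, adjusted p = 0.0303) and Rpl27a, the last at 49.4, 45.6, 48.4 and 54.9 CPM in ischemic microglia and 38.5, 37.9, 36.8 and 62.7 CPM in brain CD11c cells (−0.56 ± 0.15, SE, adjusted p = 0.00488). Brain library 4 stood far above the other 3 for Rpl27a, and on the TMM scale the gene did not pass (−0.17 ± 0.15, SE, adjusted p = 0.392). With brain CD11c libraries 1 and 2 alone Rpl14 and Rpl27a kept these calls, Rplp2, Rpl39l and Rpl15 lost them, and Rps27l was higher and Rpl10a lower, which makes 2 higher (13.7% of all genes) and 2 lower (19.3%). With libraries 3 and 4 alone 7 were higher (9.30% of all genes) and 6 lower (48.3%).

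Brain and spleen CD11c cells carry the same reporter. In brain CD11c cells 17 members were higher and 0 lower by edgeR, against 31.2% of all genes called higher and 33.0% called lower, so the share of members called higher lay below that of all genes. Groups did not overlap for 9 members that were higher (25.3% of all genes) and 0 that were lower (29.9%). No member was lower at an unadjusted p under 0.05 by edgeR, and DESeq2 and limma-voom called 0 lower. The median member changed by 0.16, the median gene by −0.04 and the median of the 1369 shortest other coding genes by 0.15. The direction of the median was not stable: it was −0.10 with library totals, where the median of all genes was −0.30, and −0.14 with brain CD11c libraries 1 and 2 alone. With those 2 libraries 4 members were higher and 14 of 78 lower, both smaller shares than the 30.9% and 34.4% of all genes. With libraries 3 and 4 alone 36 of 79 were higher, against 27.6% of all genes, and with library totals 2 were higher and 7 lower, the higher share of all calls going from 48.6% to 34.9%.

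Of the 17 members, 3 were also called higher with brain CD11c libraries 1 and 2 alone, Rpl39l, Rps27l and Rps2. Rps27l stood at 24.4, 22.6, 21.7 and 28.2 CPM in spleen CD11c cells, below all brain CD11c libraries (0.74 ± 0.14, SE, adjusted p = 0.00021), and with brain libraries 1 and 2 alone the change was 0.92 (adjusted p = 3.4e-05, edgeR). Rps2 stood at 86.8, 83.9, 91.0 and 92.4 CPM in the spleen cells, also below all brain libraries (0.44 ± 0.12, SE, adjusted p = 0.00416), and at 0.40 with libraries 1 and 2 alone (adjusted p = 0.0202, edgeR). Rpl3, which shapes the centre where peptide bonds are made, stood at 98.5, 96.5, 121 and 123 CPM in the brain and 94.6, 87.5, 81.4 and 72.3 CPM in the spleen cells (0.39 ± 0.12, SE, adjusted p = 0.0087), but did not pass with libraries 1 and 2 alone. Within the set 9 members were higher (25.0% of all genes) and 0 lower (29.1%), with 0 lower at an unadjusted p under 0.05 by edgeR and 1 lower by DESeq2. With brain CD11c libraries 1 and 2 alone 9 were higher (33.7%) and 2 lower (25.6%), and 7 of the 9 were called with all libraries too. With libraries 3 and 4 alone 9 were higher (18.5%) and 2 lower (40.1%).

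The calls of other members with a large change between brain and spleen CD11c cells were less stable. Rpl36 stood at 2.79, 2.10, 5.17 and 4.81 CPM in the brain and 2.02, 1.25, 2.89 and 2.20 CPM in the spleen cells (0.83 ± 0.33, SE, adjusted p = 0.0349), and the groups overlapped. Rpl10 stood at 31.2, 27.7, 39.2 and 52.5 CPM and 28.6, 25.4, 25.2 and 32.9 CPM (0.42 ± 0.18, SE, adjusted p = 0.0448), and Rps27 at 3.83, 2.94, 5.37 and 7.21 CPM and 3.06, 2.78, 3.75 and 3.10 CPM (0.61 ± 0.24, SE, adjusted p = 0.0389). In each of these genes brain libraries 3 and 4 were the highest, and none passed with libraries 1 and 2 alone. Each of them also lost the call in 5 of the 8 fits that left out a library.

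Of the paralogs, Rpl39l had the largest changes. Rpl39l, a paralog of the exit-tunnel protein Rpl39 best known from male germ cells, has no sequence shared with another gene at the window length used. It stood at 1.10, 0.794, 1.52 and 1.04 CPM in control microglia, 2.03, 3.11, 2.14 and 1.61 CPM in ischemic microglia, 1.12, 1.51, 1.22 and 1.99 CPM in brain CD11c cells and 0.274, 0.212, 0.619 and 0.185 CPM in spleen CD11c cells. Every spleen library lay below every library of the brain, and spleen library 3 was the highest of its group. The log2 fold change was −1.77 ± 0.39 (SE, adjusted p = 0.000728) for spleen CD11c cells minus control microglia and 2.16 ± 0.39 (SE, adjusted p = 0.000156) for brain minus spleen CD11c cells. It was 0.99 ± 0.36 (SE, adjusted p = 0.0435) for ischemic minus control microglia, a call that held without control library 3 or ischemic library 4 and was lost in the other 6 of the 8 fits that left out a library. The spleen libraries held 8 to 30 counts of the gene.

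Its parent Rpl39 stood at 29.0, 21.8, 25.8 and 35.9 CPM in control microglia, 42.2, 41.9, 39.2 and 44.1 CPM in ischemic microglia, 48.8, 43.3, 52.6 and 99.0 CPM in brain CD11c cells and 54.2 ± 7.30 CPM (SD, n = 4) in spleen CD11c cells. It was higher in the spleen cells than in control microglia (0.95 ± 0.21, SE, adjusted p = 0.000928), where Rpl39l was lower, and brain library 4 lay far above the others of its group. The difference between the 2 genes was not tested as such.

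Rps27l rose from 9.72, 11.3, 13.0 and 13.3 CPM in control microglia to the values of ischemic microglia given above (0.94 ± 0.14, SE, adjusted p = 0.00012) and was higher in spleen CD11c cells than in control microglia (1.03 ± 0.14, SE, adjusted p = 6.3e-06). Rps27 stood at 5.02, 3.48, 3.27 and 3.87 CPM in control and 3.31, 3.61, 3.06 and 3.20 CPM in ischemic microglia (−0.25 ± 0.24, SE, adjusted p = 0.459) and passed in neither comparison with control microglia. Only 1.35% of the windows of Rps27 are its own, and the retrogene with the same coding bases, Rps27rt, was higher in spleen CD11c cells than in control microglia (1.15 ± 0.25, SE, adjusted p = 0.00063, edgeR). Reads of Rps27 and Rps27rt cannot be told apart over the coding bases.

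**Figure D5:**
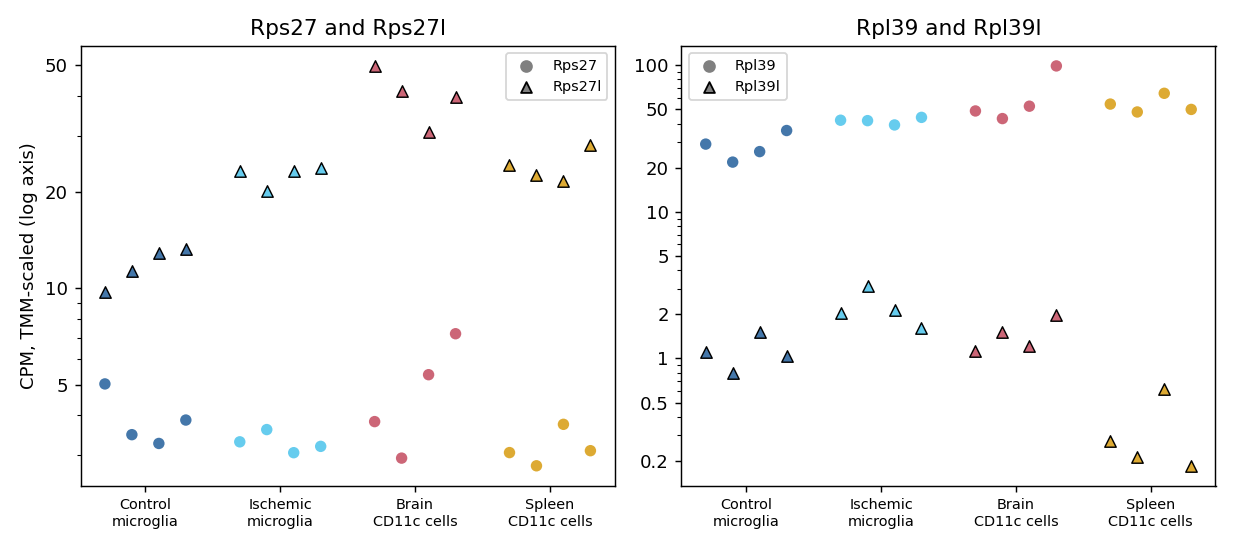
Level in each library (vertical log axes, TMM-scaled CPM) of Rps27 and Rps27l (left) and of Rpl39 and Rpl39l (right) by group, with the 4 replicates of a group side by side; circles are the parent genes and triangles the paralogs. Rps27l is lowest in control microglia and highest in brain CD11c cells, and Rpl39l is lowest in the 4 spleen libraries, where it stands at 0.185 to 0.619 CPM.

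The other paralogs were close to absent. Rpl3l, known from heart and skeletal muscle, had 0 counts in each of the 8 microglia libraries, 1, 3, 16 and 8 counts in brain CD11c cells and 6, 8, 3 and 2 in spleen CD11c cells. Rpl10l, known from testis, had 1 and 5 counts in control microglia libraries 2 and 3 and 0 in the other 14 libraries. Rps4x, a small-subunit gene on the X chromosome, stood at 126, 97.8, 99.1 and 138 CPM in control and 142, 163, 157 and 161 CPM in ischemic microglia (0.43 ± 0.16, SE, adjusted p = 0.0428). That call held without control library 4 and was lost in the other 7 fits that left out a library.

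Over all groups, 57 of the 78 tested members had their lowest group mean in control microglia, 14 in ischemic microglia, 7 in spleen CD11c cells and 0 in brain CD11c cells. The highest mean was in brain CD11c cells for 54 members, in spleen CD11c cells for 16, in ischemic microglia for 5 and in control microglia for 3. The last tally rests on brain CD11c libraries 3 and 4 and on the scale: with libraries 1 and 2 alone the highest mean was in brain CD11c cells for 12 members and in spleen CD11c cells for 49, and with library totals for 25 and 48. Control microglia were lowest for 57 members in both of these settings. The order of neighbouring groups was not fixed for abundant Rps9, of the small subunit. It stood at 407, 335, 345 and 474 CPM in control microglia, 556, 595, 559 and 518 CPM in ischemic microglia, 631, 572, 694 and 574 CPM in spleen CD11c cells and 579, 599, 1021 and 1264 CPM in brain CD11c cells, where libraries 3 and 4 lay far above libraries 1 and 2.

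Ribosome-related genes outside the rule are described by counts, beside the shares of all genes called higher and lower: 17.7% and 18.0% for ischemic against control microglia, 19.7% and 19.1% for brain CD11c cells against ischemic microglia, 31.2% and 33.0% against spleen CD11c cells, and 37.1% and 31.7% for spleen CD11c cells against control microglia. Of 10 further genes for ribosomal proteins or near relatives, 4 rose and 0 fell in ischemic against control microglia (median 0.52), 2 and 0 passed in brain CD11c cells against ischemic microglia, 4 and 1 in brain against spleen CD11c cells, and 6 and 2 in spleen CD11c cells against control microglia. With brain CD11c libraries 1 and 2 alone, 1 and 0 passed against ischemic microglia and 2 and 2 against the spleen. Rack1, a scaffold on the small subunit with 99.1% of its windows to itself, ran from 579 to 779 CPM in control and from 1134 to 1392 CPM in ischemic microglia (0.92 ± 0.13, SE, adjusted p = 6.56e-05, edgeR). Rpl36al and Rpl22l1, paralogs of ribosomal protein genes, also rose (0.76 and 0.92). Fau, which encodes Rps30 fused to a ubiquitin-like protein, was lower in spleen CD11c cells than in control microglia (−0.99 ± 0.27, SE, adjusted p = 0.00372, edgeR). Its level was low, with means of 1.59 and 3.16 CPM in these groups, and 37.41% of its windows are its own.

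Of 19 genes whose transcripts are known to carry a TOP tract, mostly translation factors, 14 rose in ischemic microglia and 0 fell, with a median of 0.84. The nucleolar chaperone Npm1 rose by 1.02, the initiation factor subunit Eif3e by 1.08, and Vim, a filament protein of activated cells, by 3.23. In spleen CD11c cells against control microglia 17 of 19 were higher and 1 lower, with Tpt1, a growth-related protein, at −0.65. Brain CD11c cells had 6 higher and 0 lower than ischemic microglia, and Tpt1 was among them at 1.13. Against the spleen they had 6 higher and 1 lower, with Tpt1 at 1.70 and Nap1l1, a histone chaperone, at −0.54. With brain CD11c libraries 1 and 2 alone these counts were 5 and 0 and 4 and 3, and Tpt1 stood at 0.89 and 1.46.

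In ischemic against control microglia, genes of ribosome assembly and of ribosomal RNA synthesis moved less evenly than genes of initiation. Of 28 initiation genes 17 rose and 2 fell in ischemic microglia (median 0.43), among them Eif2ak2, the double-stranded RNA sensor PKR, at 1.73, and Eif4a2 at −0.75. Of 48 assembly genes 13 rose and 7 fell (median 0.12), led by Utp4 at 0.85, and 29 were higher and 5 lower in spleen CD11c cells than in control microglia. Of 15 genes of RNA polymerase I and its factors 3 rose and 5 fell in ischemic microglia, against 17.7% and 18.0% of all genes, with the subunit Polr1c at 0.67 and the selectivity factor subunit Taf1c at −0.85. Brain CD11c cells had 1 of these 15 higher and 7 lower than spleen CD11c cells, with the termination factor Ttf1 at −1.17, and with brain libraries 1 and 2 alone 2 higher and 7 lower.

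Of 77 tested genes of the mitochondrial ribosome, whose members are encoded apart from those of the cytosolic one, 17 rose and 4 fell in ischemic microglia (median 0.16). In brain CD11c cells 34 were higher and 0 lower than in ischemic microglia (median 0.29), led by Mrpl33 at 1.24, and with brain libraries 1 and 2 alone 47 of 78 were higher and 0 lower (median 0.41). Thus the count for the mitochondrial ribosome did not need libraries 3 and 4, whereas that for the cytosolic ribosome fell from 30 to 4 without them. They numbered 14 higher and 13 lower against spleen CD11c cells (25 and 7 with libraries 1 and 2 alone), and spleen CD11c cells had 51 higher and 2 lower than control microglia. Of 22 genes of mTORC1 signalling 5 rose and 2 fell in ischemic microglia, against 17.7% and 18.0% of all genes. In spleen CD11c cells 8 were higher and 6 lower than in control microglia. Among them were Rptor, the scaffold of mTORC1, at −2.73 on the log2 scale, Ddit4, an inhibitor of mTORC1, at 3.06 and Mlst8 at 1.145. In brain CD11c cells 6 were higher and 5 lower than in ischemic microglia (4 and 4 with libraries 1 and 2 alone). These included Ddit4 at 2.58, Rheb at 0.79, Rptor at −1.03 and Sesn1 at −0.83. Of 10 tested genes of the MYC family 3 rose and 0 fell in ischemic microglia, led by Mxd1, a MYC antagonist, at 1.21. Myc itself did not pass there (−0.69 ± 0.27, SE, adjusted p = 0.0594, edgeR). It was lower in brain CD11c cells than in ischemic microglia (−0.74 ± 0.28, SE, adjusted p = 0.0425, edgeR). In spleen CD11c cells 6 of the family were higher and 3 lower than in control microglia, with Myc lower (−1.01 ± 0.28, SE, adjusted p = 0.00407, edgeR).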

How the data were processed

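Poly(A) RNA of 16 sorted cell libraries was sequenced with stranded kits. The authors deposited whole-number counts per Ensembl gene. FastQC 0.11.5 and STAR 2.5.3a were used, per the submitters' processing notes, and the counting program, its annotation and strand setting (not given in the sources used here) are unknown. RNA input differed between libraries, per the labels, and is not given for each one. Groups came from the labels.

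Counts were fitted with edgeR 4.0.16 (R 4.3.3): TMM factors, filterByExpr, a mean per group over all 16 libraries, the robust quasi-likelihood F test (2-sided) and Benjamini-Hochberg adjustment over 16345 genes, with calls at 0.05. Every adjusted p in the text is edgeR's. A further fit took the summed counts of the 80 genes as library size. Levels are TMM-scaled CPM. Alternatives used library totals, DESeq2 1.42.0, limma-voom (limma 3.58.1), other filters and omitted libraries. The fit was tested on simulated data. Given by library are the 3 largest called changes in each direction of each comparison, the 2 largest within the set, paralogs and their parents, the 3 highest per kilobase, the stalk genes, Rps6 and Rpsa; others are named by level or fold. Some members are not reported here. Called genes of the related lists are named from the 3 largest changes in each direction of a comparison, and not all of these are named. The rule for members uses symbols alone, but the gene family and the lists were chosen with earlier results of these data known.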

Additional observations from a re-analysis of the deposited data

Results flagged for a closer look

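In 108 groups of 4 libraries of a named member or of the summed share, the gap between the extreme library and its nearest neighbour was compared with the range of the group, and 11 stood apart. Chance sets apart about 1 in 20 groups.

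Brain CD11c library 4 was the highest of its group for 4 genes. Rpl24 stood at 2.44 CPM there and at 0.700 to 0.969 in the other 3 libraries. Rpl27a stood at 62.7 CPM against 36.8 to 38.5, Rpl39 at 99.0 CPM against 43.3 to 52.6, and Rps4x at 281 CPM against 158 to 173.

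Ischemic microglia library 2 stood apart for 2 genes and for the summed share of counts. Rpsa stood at 12.6 CPM against 7.94 to 8.35, and Rps27l was lowest there at 20.1 CPM against 23.3 to 23.8. The members' share of counts was 0.958% against 0.830% to 0.847%.

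The other 4 were single genes. Rpl27 stood at 6.44 CPM in spleen CD11c library 4 against 5.08 to 5.23, and Rplp0 at 726 CPM in spleen CD11c library 3 against 652 to 661. Rpl10 stood at 45.7 CPM in control microglia library 1 against 32.1 to 33.6, and Rpl10a was lowest in control microglia library 3 at 38.6 CPM against 44.7 to 45.9.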

How the results depend on the processing

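Of 292 values recomputed for 24 summary results, 235 stayed within a set tolerance. For counts this was a limit on the ratio, and for medians it was the spread between libraries. The tolerance was wide: all 17 medians for brain CD11c cells against ischemic microglia stayed within it, though they ran from 0.08 to 0.667. Of 32 named changes 17 passed under every alternative, 15 lost the call under at least 1, and 0 changed direction. With library totals the counts higher and lower were 31 and 3 for ischemic against control microglia and 2 and 7 for brain against spleen CD11c cells, whose median was −0.10. For spleen CD11c cells against control microglia 1 member was lower and the median was 1.01. Limma-voom called 11 members higher in brain than in spleen CD11c cells. With the 8 libraries of a comparison alone, 4 members were lower in ischemic microglia, 14 were higher in brain CD11c cells than in ischemic microglia and 8 than in the spleen, and 5 were lower in the spleen than in control microglia. With no filter 13 were higher in brain CD11c cells than in ischemic microglia. With brain CD11c libraries 1 and 2 alone 4 members were higher and 2 lower against ischemic microglia, and 4 and 14 against the spleen, with a median of −0.14 and 2 lower within the set. With libraries 3 and 4 alone 64 and 36 were higher, and within the set 7 were higher and 6 lower against ischemic microglia and 2 lower against the spleen. DESeq2 within the set gave 4 higher and 5 lower for brain CD11c cells against ischemic microglia and 1 lower against the spleen. The cause of these changes was not tested.

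Leaving out 1 library, the members higher and lower numbered 36 to 45 and 0 to 1 in ischemic against control microglia, with 2 (without ischemic library 3) to 7 higher and 14 to 20 lower within the set. For brain CD11c cells against ischemic microglia they numbered 11 (without brain library 4) to 46 (without brain library 2) and 0 to 1, with medians of 0.21 to 0.53, and within the set 0 to 4 and 1 to 4. Against the spleen they numbered 8 (without brain library 4) to 20 and 0 to 3, with medians of −0.013 to 0.264, the former without brain library 4, and within the set 4 (without spleen library 4) to 10 and 0 to 1. For spleen CD11c cells against control microglia they numbered 48 to 53 and 2 to 4. No paired analysis was possible because the labels share only the number 11 between a brain and a spleen CD11c library, and the other groups come from different mouse lines or share no number. Low counts limit Rpl38, Rpl24, Rps6 and Rps29, and shared sequence limits the 43 members with under 50% of windows of their own.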
